A study of Mus musculus with 4 samples.

Results

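Collagens and the enzymes and chaperones that make them were followed in neurospheres of 2 Dll1 mutant mouse lines set against wild type. Members were chosen by name: every non-control probe annotated as a collagen chain, a prolyl 4-hydroxylase subunit (P4ha, P4hb), a lysyl hydroxylase (Plod), a procollagen C-proteinase enhancer (Pcolce), a lysyl oxidase (Lox, Loxl), Fkbp10 or Serpinh1. This gave 104 probes for 56 genes, of 41174 probes and 27390 gene names on the array. A filter on dim spots kept probes whose mutant or wild-type channel exceeded background clearly on both arrays of at least 1 line, and 81 probes for 49 of the 56 genes passed. These 49 are 35 collagen chains, 13 processing genes and Col4a3bp, which matches by name alone and encodes a ceramide transfer protein (now Cert1).

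Collagens are triple helices of 3 polypeptide chains. In the endoplasmic reticulum, prolyl and lysyl hydroxylases modify the chains and the chaperones Serpinh1 (HSP47) and Fkbp10 (FKBP65) assist folding. After secretion, bone morphogenetic protein 1 removes the C-terminal propeptide with help from the Pcolce proteins, and lysyl oxidases cross-link the fibres. In the developing brain, collagen IV is a component of the basement membranes of vessels and meninges, while fibrillar collagens are best known from connective tissue.

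The cells were neurospheres, floating cultures grown from neural stem cells of mice of 129/Sv crossed with C57BL/6, in serum-free medium with EGF. The groups were Dll1-3 mutant, Dll1-5 mutant and wild type. All 3 groups share strain, cell type and medium, and the alleles and ages are not given in the sources used here. Dll1 encodes a Notch ligand. Each mutant line was hybridised against wild-type RNA on 2 two-colour arrays with the dyes swapped, mutant RNA being in Cy5 in replicate 1 and in Cy3 in replicate 2. RNA was pooled from 3 samples, so a line is 1 replicate here. The labels do not say if a dye swap used 1 pool or a new one. Values over both lines have n = 2. P-values measure the spread between the lines and leave out the spread between wild-type pools. Ratios are log2 of mutant over wild type, so that 1 is 2-fold higher in the mutant. Signals, where given, are normalised array brightness and are compared between mutant and wild type within a probe. Summed signals of marker lists add different probes, so the brightest probes weigh most in them.

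Dll1 itself was lower on all 4 arrays, at −3.31 and −3.22 in Dll1-3 and −1.65 and −1.64 in Dll1-5. Mutant RNA was well above background at 80.9 to 81.3% of probes per array and wild-type RNA at 80 to 82.1%. All 8 neural stem cell and radial glia markers examined passed the filter, with a median ratio of −0.58. Wild-type RNA was well above background for all 8 on every array and mutant RNA for 7, Pax6 being so on 2 of 4 arrays. Over the list, the summed signal was 61942 to 82445 in mutants against 99117 to 115572 in wild type. The arrays measure whole cultures, in which fewer cells of a type and less RNA per cell cannot be told apart.

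The members as a group stood near 0, and a few processing genes stood far from it. The median over the 49 genes was 0.03, against 0.01 over all genes tested, and the median size of the ratio, sign ignored, was 0.29 against 0.19. Collagen chains had a median of 0.01 and ratios between −1.44 and 1.05, while processing genes had a median of 0.18 and ratios between −0.77 and 3.94. On all 4 arrays, 13 of the 49 genes (26.5%) lay within 0.25 of 0, as did 27.9% of all genes. In limma over the 2 line means, 0 of the 49 genes passed an adjusted p of 0.05, as did 0 (0%) of the 23106 genes tested, the smallest adjusted p being 0.0755. At an unadjusted p of 0.05, 9 members were higher, where 12.0% of all genes were, and 5 were lower, where 15.5% of all genes were. Treating the 4 arrays as independent, dye swaps included, 16 members passed, 9 higher and 7 lower, where 33.7% of all genes passed in either direction.

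By size, with no test, 2 of the 49 members, Fkbp10 and Pcolce, were at least 2-fold higher on all 4 arrays, a rule met by 1.69% of all genes. Col27a1 alone was at least 2-fold lower on all 4 arrays, as were 2.75% of all genes. On both Dll1-3 arrays, 3 members were at least 2-fold higher (Fkbp10, Pcolce, Pcolce2; 4.46% of all genes) and 5 were lower (Col27a1, Col16a1, Col4a5, Plod2, Col11a1; 6.10%). On both Dll1-5 arrays, 4 members were at least 2-fold higher (Fkbp10, Serpinh1, Pcolce, Col18a1; 3.01%) and Col27a1 was lower (3.69%). The 13 processing genes hold all of these except Col18a1 among the higher genes, and collagen chains hold all except Plod2 among the lower genes.

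The 2 collagen chaperones were both higher on every array. Fkbp10, a peptidyl-prolyl isomerase of the endoplasmic reticulum that acts on procollagen, had ratios of 3.81 and 4.02 in Dll1-3 and 3.88 and 4.05 in Dll1-5. Its signal was 2470 and 2310 in Dll1-3 mutants, against 176 and 142 in their wild type. The Dll1-5 arrays gave 2660 and 2400 in mutants, against 180 and 145 in wild type. Both channels were well above background on each array, and the mutant and wild-type signals lay far apart without overlap. The mean was 3.94 (SD 0.04, n = 2), or 15.4-fold higher, with an adjusted p of 0.0755 in limma, and the lines differed by −0.05. Over the alternatives tried, its adjusted p in limma ran from 6.31e-05 to 0.101. With the 4 arrays as separate samples it was 6.44e-05. It was 0.0323 with a normexp offset of 10 (ratio 4.38; 922 of all genes passed) and 0.0378 with the scanner software's ratios (4.75; 336 genes). It was 0.101 with the deposited value table (4.75) and 0.0869 with median centring (4.05), where 0 genes passed. Without Dll1-3 replicate 1 it was 0.0236 (1678 genes), and without Dll1-5 replicate 2 it was 0.0215 (1645 genes).

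Serpinh1, the collagen-specific chaperone, had ratios of 0.79 and 0.94 in Dll1-3 and 2.03 and 2.10 in Dll1-5. Its signal was 10400 and 11700 in Dll1-3 mutants, against 6050 and 6090 in wild type. In Dll1-5 mutants it was 23100 and 26100, against 5640 and 6070 in wild type. Wild-type signals were alike on all 4 arrays, and the mutant signals of Dll1-5 stood above those of Dll1-3. Over both lines the mean was 1.47 (SD 0.85, n = 2; limma adjusted p = 0.157). The difference, Dll1-3 minus Dll1-5, was −1.21, or 2.31-fold.

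The 2 procollagen C-proteinase enhancers differed from each other and between the lines. Pcolce, which binds the procollagen C-propeptide and enhances its cleavage, had ratios of 2.75 and 2.79 in Dll1-3 and 1.71 and 1.77 in Dll1-5. Its signal was 3960 and 3620 in Dll1-3 mutants, against 590 and 522 in wild type. In Dll1-5 mutants it was 1460 and 1390, against 447 and 408 in wild type. Pcolce was thus higher than wild type on every array, with a mean of 2.25 (SD 0.73, n = 2; 4.77-fold; limma adjusted p = 0.0883). Pcolce2, its paralogue, had ratios of 2.84 and 2.77 in Dll1-3 and −1.07 and −0.71 in Dll1-5. Its signal was 1900 and 1640 in Dll1-3 mutants, against 265 and 240 in wild type. In Dll1-5 mutants it was 61.4 and 88, against 129 and 144 in wild type, and the mutant was well above background on 1 of the 2 arrays. Wild-type signals on the Dll1-3 arrays were thus above those on the Dll1-5 arrays. The Pcolce2 ratio was high in one line and below 0 in the other, so its mean over both, 0.96 (SD 2.61, n = 2; limma adjusted p = 0.674), describes neither.

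**Figure D1:**
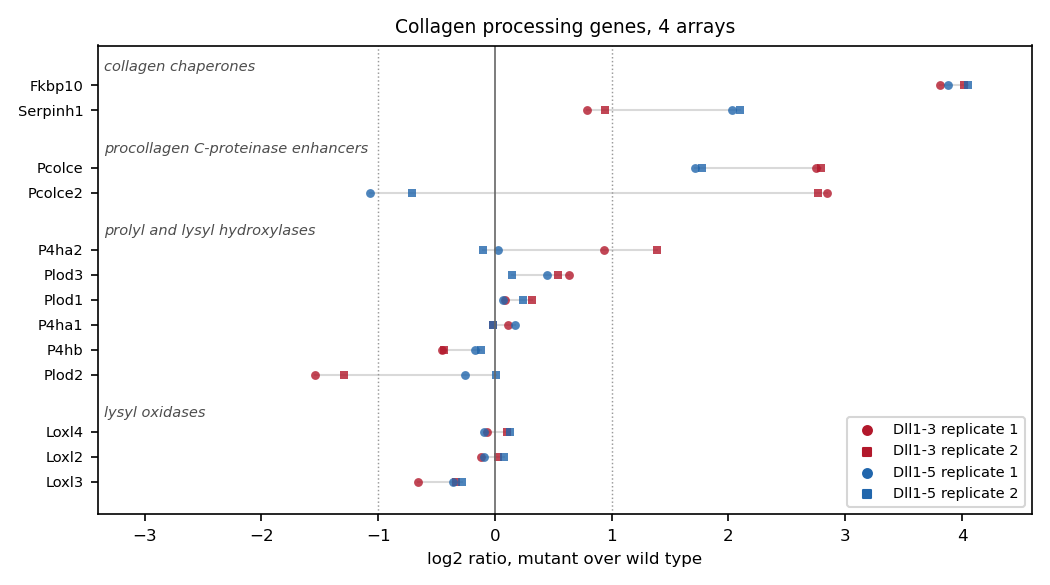
Log2 ratio of mutant over wild type (horizontal axis) for the 13 collagen processing genes that passed the filter, by family. Red points are the Dll1-3 arrays and blue points the Dll1-5 arrays, circles are replicate 1 and squares replicate 2, grey lines join lowest and highest array, and dotted lines mark 2-fold. Fkbp10 lies between 3.81 and 4.05 on every array, while Pcolce2 is near 2.8 in Dll1-3 and below 0 in Dll1-5.

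The bases before the RefSeq start of 5 of the genes that stood out in at least 1 line are shown for reference. Windows of 250 bases, from RefSeq (GRCm38.p6), were available for 41 of the 56 members. They are written 5′ to 3′ on the strand of the gene, and capitals mark 4 motifs searched on both strands. The first is TGGGAA, the core bound by RBPJ, the DNA-binding partner of Notch. The others are the general promoter elements CCAAT, known as the CCAAT box, the GC box with the letters GGGCGG, and the TATA box with the letters TATAAA. The windows are those of Serpinh1 (chr7:99353240-99353489, minus strand), Pcolce (chr5:137611405-137611654, minus strand) and Pcolce2 (chr9:95637378-95637627, plus strand). Those of Col27a1 (chr4:63215162-63215411, plus strand), lower on all 4 arrays, and Col4a5 (chrX:141475169-141475418, plus strand), lower in both lines, are given with them.
Serpinh1: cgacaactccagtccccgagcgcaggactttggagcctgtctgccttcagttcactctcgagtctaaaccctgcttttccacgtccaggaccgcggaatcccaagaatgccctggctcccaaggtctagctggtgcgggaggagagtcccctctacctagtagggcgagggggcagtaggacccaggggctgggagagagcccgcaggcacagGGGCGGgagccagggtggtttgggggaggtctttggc
Pcolce: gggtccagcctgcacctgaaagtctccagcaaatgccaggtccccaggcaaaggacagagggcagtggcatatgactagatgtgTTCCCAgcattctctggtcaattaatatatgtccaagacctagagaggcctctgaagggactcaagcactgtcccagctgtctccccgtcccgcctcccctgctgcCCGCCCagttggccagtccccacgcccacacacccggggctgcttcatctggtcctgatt
Pcolce2: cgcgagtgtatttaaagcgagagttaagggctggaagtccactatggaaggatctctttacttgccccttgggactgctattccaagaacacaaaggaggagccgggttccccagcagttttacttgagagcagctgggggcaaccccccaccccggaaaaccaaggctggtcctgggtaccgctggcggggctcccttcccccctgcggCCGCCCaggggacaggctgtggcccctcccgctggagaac
Col27a1: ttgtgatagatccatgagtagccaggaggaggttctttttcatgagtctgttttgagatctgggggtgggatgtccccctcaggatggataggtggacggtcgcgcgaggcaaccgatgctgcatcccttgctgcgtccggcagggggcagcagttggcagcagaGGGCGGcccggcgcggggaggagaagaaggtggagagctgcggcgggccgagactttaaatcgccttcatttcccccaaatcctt
Col4a5: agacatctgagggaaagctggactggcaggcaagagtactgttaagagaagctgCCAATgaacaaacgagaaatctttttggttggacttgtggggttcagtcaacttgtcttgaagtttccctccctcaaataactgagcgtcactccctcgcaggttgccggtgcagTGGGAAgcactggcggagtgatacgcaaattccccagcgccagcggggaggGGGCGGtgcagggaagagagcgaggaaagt
The motif TGGGAA occurred once each in the windows of Pcolce (as its reverse complement) and Col4a5, and in 21.6% of the 32851 RefSeq windows of this length. The GC box occurred once in each of the 5 windows and in 32.7% of all windows. The window of Col4a4, searched with these but not shown, held no match to any of the motifs, so the 5 are a selection. The CCAAT box occurred only in the window of Col4a5 among these 5 and in 33.8% of all windows, and the TATA box in none of the 5 and in 12.4% of all windows. No matches overlapped in these windows. Of the 44 windows of member genes, 13 (29.5%) held the RBPJ core, 14 (31.8%) the CCAAT box, 28 (63.6%) the GC box and 6 (13.6%) the TATA box. A match describes the letters and does not show binding.

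Among the prolyl and lysyl hydroxylases, 6 of 7 genes passed the filter and ratios over both lines ran from −0.77 to 0.56. Plod2, the lysyl hydroxylase of the collagen telopeptides, had ratios of −1.54 and −1.29 in Dll1-3 and −0.26 and 0.01 in Dll1-5. Its signal was 444 and 513 in Dll1-3 mutants, against 1290 and 1250 in wild type. On the Dll1-5 arrays it was 974 and 1180 in mutants, against 1170 and 1170 in wild type. The Dll1-3 mutant signals were therefore low and those of Dll1-5 close to wild type, and over both lines the mean was −0.77 (SD 0.91, n = 2; limma adjusted p = 0.366).

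P4ha2, a catalytic subunit of prolyl 4-hydroxylase, had ratios of 0.93 and 1.39 in Dll1-3 and 0.03 and −0.10 in Dll1-5. Its signal was 307 and 245 in Dll1-3 mutants, against 161 and 93 in wild type. Values in Dll1-5 were 89.6 and 94.5 in mutants, against 87.7 and 101 in wild type. The wild-type signal differed between the Dll1-3 arrays more than in Dll1-5, and over both lines the mean was 0.56 (SD 0.84, n = 2; limma adjusted p = 0.456). P4hb, the shared beta subunit, which is also protein disulphide isomerase, had ratios of −0.45 and −0.44 in Dll1-3 and −0.17 and −0.12 in Dll1-5. Its mean of −0.29 (SD 0.21; adjusted p = 0.276) turned to 0.04 with median centring of the arrays in place of loess. Plod3, which also has collagen glycosyltransferase activity, averaged 0.44, Plod1 0.18 and the catalytic subunit P4ha1 0.06. P4ha3 did not pass the filter.

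Of the 5 lysyl oxidases, 3 passed the filter. Loxl3 had ratios of −0.66, −0.33, −0.36 and −0.28 on the Dll1-3 replicates 1 and 2 and the Dll1-5 replicates 1 and 2, with a mean of −0.41 (SD 0.13, n = 2; limma adjusted p = 0.138). Loxl2 averaged −0.03 and Loxl4 0.02, and the sign of Loxl4 turned with median centring (−0.02). Lox and Loxl1, the founding member and its elastin-linked paralogue, were well above background in no channel.

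Of the 35 collagen chains, 0 were at least 2-fold higher and 4 lower on both Dll1-3 arrays, where all genes had 4.46% and 6.10%. On both Dll1-5 arrays, 1 was higher and 1 lower, where all genes had 3.01% and 3.69%. On all 4 arrays, 10 chains (28.6%) lay within 0.25 of 0, near the 27.9% of all genes. The fibrillar collagens of connective tissue lay near 0: Col1a1 averaged 0.12, Col1a2 0.03, Col3a1 −0.03 and Col2a1, the cartilage collagen, 0.13. Of 11 fibrillar chains, 2 were higher and 2 lower at an unadjusted p of 0.05, where 12.0% and 15.5% of all genes were, and ratios over both lines ran from −1.44 to 0.80.

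Col27a1, a fibrillar collagen known from cartilage, was lowest. Its ratios were −1.97 and −1.53 in Dll1-3 and −1.24 and −1.02 in Dll1-5. Its signal was 69.9 and 91.8 in Dll1-3 mutants, against 273 and 265 in wild type. In Dll1-5 it was 108 and 119 in mutants, against 255 and 242 in wild type. Mutant and wild-type signals did not overlap, and the mean was −1.44 (SD 0.44, n = 2; 2.71-fold lower; limma adjusted p = 0.0879). The other 2 passing probes of Col27a1 gave −0.63 and 0.02, so the probes disagree on its size. Col27a1 did not meet the 2-fold rule on all 4 arrays with median centring, where Col4a5 did, with no background correction, or with the mean of its probes.

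Col11a1, a chain of collagen XI, had ratios of −1.23 and −1.19 in Dll1-3 and −0.12 and −0.37 in Dll1-5. Its signal was 144 and 173 in Dll1-3 mutants, against 338 and 396 in wild type, and 351 and 329 in Dll1-5 mutants, against 380 and 424 in wild type. The mean was −0.73 (SD 0.69, n = 2; limma adjusted p = 0.292), and its 2 other passing probes, both dimmer, gave −0.04 and 0.07. Its partner chain Col11a2 averaged −0.51 (SD 0.10; adjusted p = 0.103).

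Col5a3, a chain of collagen V, had ratios of 0.98 and 0.99 in Dll1-3 and 0.58 and 0.64 in Dll1-5, with a mean of 0.80 (SD 0.27, n = 2; limma adjusted p = 0.103). Its signal was 253 and 209 in Dll1-3 mutants, against 128 and 105 in wild type, and its other passing probe gave 0.04. Col5a1 averaged 0.41 and its other probe −0.08, and Col5a2, with 1 probe, averaged 0.22 with ratios from −0.12 to 0.52.

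Of the 9 basement membrane and network collagens, 7 passed the filter. The 6 collagen IV genes lie in head-to-head pairs that share a promoter region, and by the brightest probes 2 of the pairs were split. Col4a4 had ratios of 1.23 and 0.87 in Dll1-3 and 1.21 and 0.89 in Dll1-5. Its signal was 3800 and 3880 in Dll1-3 mutants, against 1630 and 2120 in wild type. The Dll1-5 arrays gave 3500 and 3790 in mutants, against 1510 and 2040 in wild type. The ratio was larger in replicate 1, with mutant RNA in Cy5, than in replicate 2 of both lines. The mean was 1.05 (SD 0.00, n = 2; limma adjusted p = 0.0755), but a second, dimmer passing probe gave −0.11. Its neighbour Col4a3 averaged 0.04, so this pair was split by the brighter Col4a4 probe only.

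Col4a5, mutated in X-linked Alport syndrome in humans, had ratios of −1.66 and −1.33 in Dll1-3 and −1.19 and −0.99 in Dll1-5. Its signal was 54.5 and 88.3 in Dll1-3 mutants, against 172 and 222 in wild type, and the mutant was not well above background on either array. With the background correction used, the Dll1-3 ratio averaged −1.49, or 2.81-fold lower, which is an estimate from dim mutant spots and not a bound. The Dll1-3 ratio was −1.28 without background correction and −4.03 with the scanner software's ratios, so its size depended on the background step. The Dll1-5 mutants had 80.2 and 120, against 183 and 238 in wild type. The mean was −1.29 (SD 0.29, n = 2; limma adjusted p = 0.0788), while its neighbour Col4a6 averaged 0.10.

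Col4a1 and Col4a2, the chains found in nearly all basement membranes, averaged −0.24 (SD 0.12; limma adjusted p = 0.256) and −0.26 (SD 0.23; adjusted p = 0.344). The Col4a2 probe was well above background in mutant RNA on 1 of 4 arrays. A second probe of each gene was lower in mutant RNA than in wild type on every array. Over the Dll1-3 replicates 1 and 2 and the Dll1-5 replicates 1 and 2, it gave −0.69, −0.72, −0.62 and −0.88 for Col4a1. For Col4a2 it gave −0.77, −0.71, −0.33 and −0.85 in the same order. Over both lines, the second probe averaged −0.73 for Col4a1 and −0.67 for Col4a2. Of the network collagens, Col8a1 averaged 0.05, and Col8a2 and Col10a1 did not pass the filter.

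**Figure D2:**
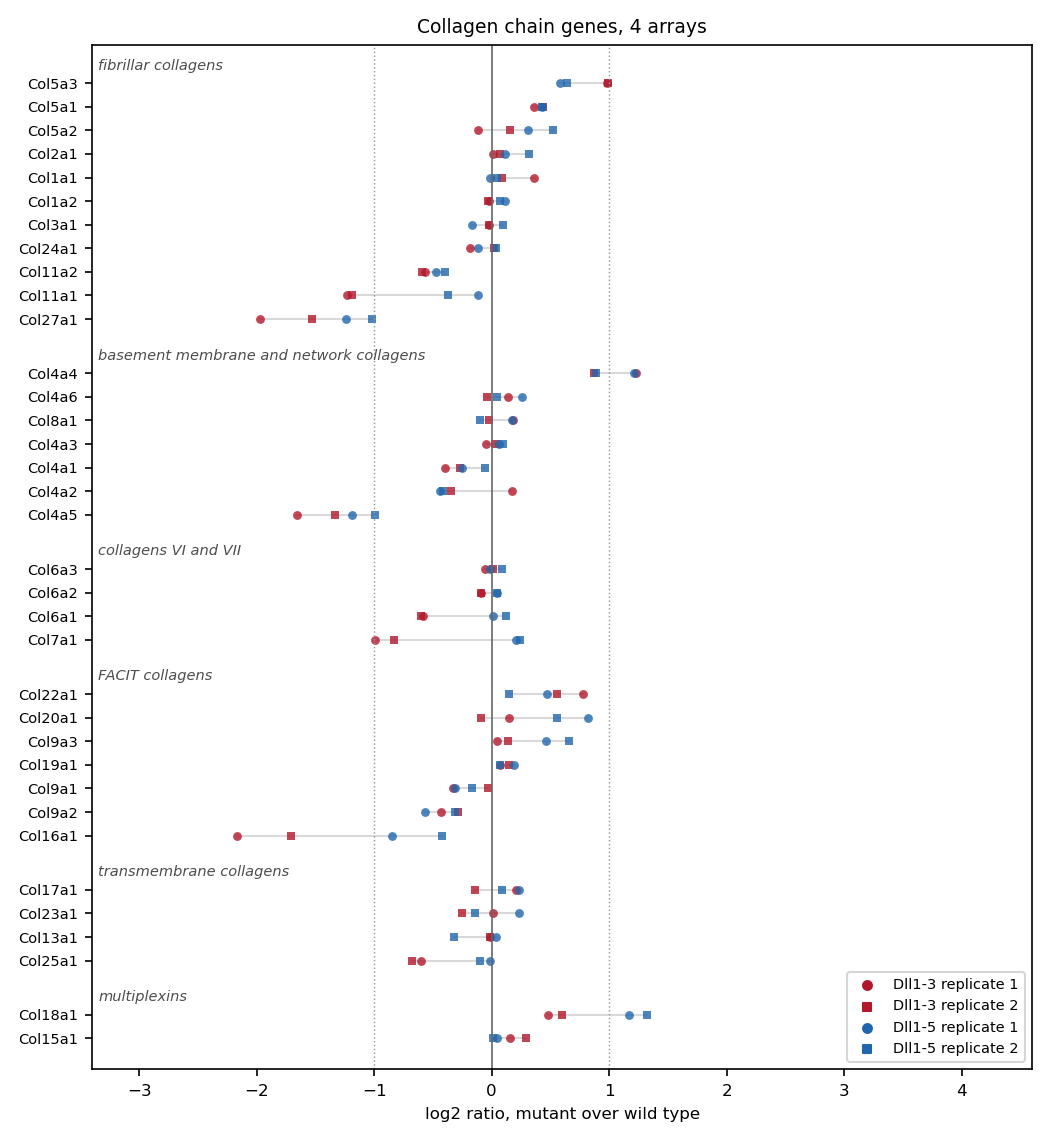
Log2 ratio of mutant over wild type (horizontal axis) for the 35 collagen chain genes that passed the filter, by family, with the same symbols for lines and replicates and dotted lines at 2-fold. Only Col27a1 lies past −1 on all 4 arrays, Col4a4 lies between 0.87 and 1.23, and Col1a1, Col1a2 and Col3a1 lie near 0.

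Among the fibril-associated (FACIT) collagens, 7 of 9 genes passed and ratios over both lines ran from −1.29 to 0.49. Col16a1 had ratios of −2.17 and −1.71 in Dll1-3 and −0.85 and −0.42 in Dll1-5. Its signal was 913 and 1070 in Dll1-3 mutants, against 4120 and 3520 in wild type. On the Dll1-5 arrays it was 2500 and 2790 in mutants, against 4510 and 3740 in wild type. Mutant signals were below wild type on each array, lowest in Dll1-3, and the mean was −1.29 (SD 0.92, n = 2; limma adjusted p = 0.204). A second, far dimmer passing probe gave 0.05. Col22a1, at tissue junctions, averaged 0.49 (SD 0.25; adjusted p = 0.169), Col20a1 0.36 and Col9a3 0.33. Col9a1 averaged −0.21 and Col9a2 −0.40, so the 3 chains of collagen IX did not lie on the same side of 0, and Col19a1 averaged 0.12. Col12a1 and Col14a1 did not pass the filter.

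The multiplexins Col15a1 and Col18a1 carry large non-helical domains, and Col18a1 is the source of endostatin. Col18a1 had ratios of 0.48 and 0.60 in Dll1-3 and 1.17 and 1.32 in Dll1-5. Its signal was 177 and 162 in Dll1-3 mutants, against 126 and 107 in wild type, and 295 and 271 in Dll1-5 mutants, against 131 and 109 in wild type. The mean was 0.89 (SD 0.50, n = 2; limma adjusted p = 0.157), and a dimmer second probe gave 0.30. Col15a1 averaged 0.13.

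Col7a1, the anchoring fibril collagen, had ratios of −0.99 and −0.83 in Dll1-3 and 0.21 and 0.24 in Dll1-5. Its signal was 379 and 405 in Dll1-3 mutants, against 753 and 719 in wild type, and 909 and 905 in Dll1-5 mutants, against 785 and 768 in wild type. It was therefore below wild type in one line and slightly above it in the other. Of the collagen VI chains, Col6a1 averaged −0.59 in Dll1-3 and 0.07 in Dll1-5, Col6a2 averaged −0.02 over both lines and Col6a3 0.01. The sign of Col6a3 turned without replicate 2 of Dll1-3 (−0.01) or of Dll1-5 (−0.02).

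All 4 transmembrane collagens passed, with ratios from −0.35 to 0.10. Col25a1, a neuronal collagen found in amyloid plaques, had ratios of −0.60 and −0.68 in Dll1-3 and −0.01 and −0.10 in Dll1-5, with a mean of −0.35 (SD 0.42, n = 2; limma adjusted p = 0.395). Col17a1, a hemidesmosome component, averaged 0.10, and its wild-type signal was well above background on no array. Col13a1 and Col23a1 averaged −0.08 and −0.04, and the remaining fibrillar chain, Col24a1, averaged −0.06. Col4a3bp, the name match, averaged −0.36, and its 3 other passing probes gave 0.00 to 0.16.

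**Figure D3:**
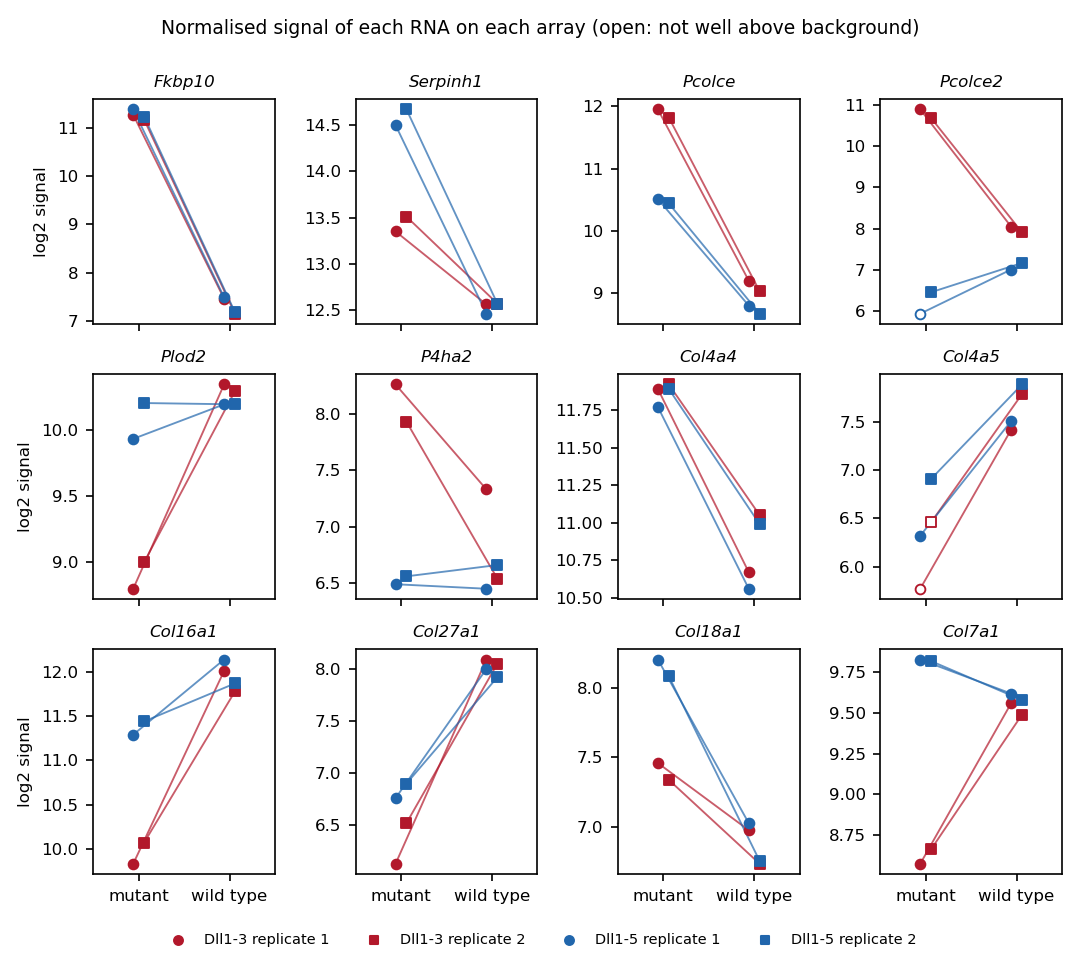
Normalised log2 signal (vertical axis, a separate range in each panel) of mutant RNA on the left and wild-type RNA on the right for 12 members. A line joins the 2 RNAs of 1 array, red for Dll1-3 and blue for Dll1-5, circles for replicate 1 and squares for replicate 2, and open symbols are channels not well above background. Fkbp10 is higher in mutant RNA on all 4 arrays, Pcolce2 in Dll1-3 only, and the Col4a5 mutant signal in Dll1-3 is open on both arrays.

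The 2 mutant lines were next set against each other. Lines were counted as apart where their means differed at least 2-fold and both arrays of one lay above both of the other. This held for 7 of the 49 members, against 4.42% of all genes. Pcolce2, P4ha2 and Pcolce were higher in Dll1-3 than in Dll1-5 (1.66% of all genes), with differences of 3.69, 1.19 and 1.03. Col16a1, Plod2, Serpinh1 and Col7a1 were lower in Dll1-3 than in Dll1-5 (2.76% of all genes), with differences of −1.31, −1.29, −1.21 and −1.13. The size of the Pcolce2 difference rests on dim Dll1-5 signals and ran from 3.47 without background correction to 4.61 with an offset of 10, 6.00 with the scanner software's ratios and 6.01 with the deposited value table.

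With 1 pooled replicate a line, the difference has no test in the fit on line means. Taking the 4 arrays as separate samples, a choice made after seeing the data, limma gave an adjusted p of 0.00095 for the Pcolce2 difference and 0.00317 for that of Serpinh1. It gave 0.00356 for Pcolce, 0.00363 for Col7a1, 0.00571 for Plod2, 0.011 for P4ha2 and 0.0151 for Col16a1. In all, 13 of the 49 members passed that test, where 18.3% of all genes passed. These p-values measure the spread between dye-swapped arrays only. With median centring in place of loess, 2 of the 7 members, Pcolce2 and P4ha2, still met the rule for lines apart.

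**Figure D4:**
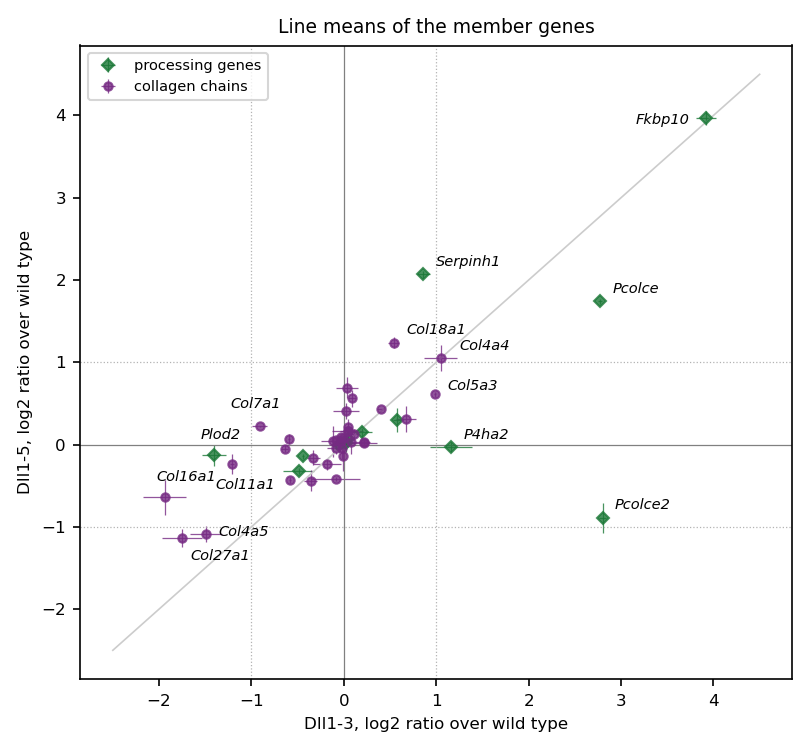
Line means of the log2 ratio over wild type in Dll1-3 (horizontal axis) and Dll1-5 (vertical axis) for processing genes (green diamonds) and collagen chains (purple circles). Bars reach from the mean to the 2 arrays of the line, the grey diagonal marks equal ratios, and dotted lines mark 2-fold. Fkbp10 lies on the diagonal, Pcolce and Pcolce2 below it, and Serpinh1 above it.

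Of the 49 members, 25 had another passing probe, and for 11 of these at least 1 had the opposite sign. In Col16a1, Col11a1, Col4a4 and Col5a3, the brightest probe stood apart and the dimmer ones lay near 0. Col4a1 and Col4a2 went the other way, the dimmer probe being lower. Fkbp10, Serpinh1, Pcolce, Pcolce2, Plod2, P4ha2, Col4a5 and Col7a1 rest on 1 passing probe each. Of the 49 probes used for the genes, 43 were well above background in all 8 channels. Ratios of dim probes depended on the background step: with the scanner software's ratios, Col4a5 averaged −3.13, Col27a1 −2.43, Col18a1 1.57 and Col5a3 1.43.

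**Figure D5:**
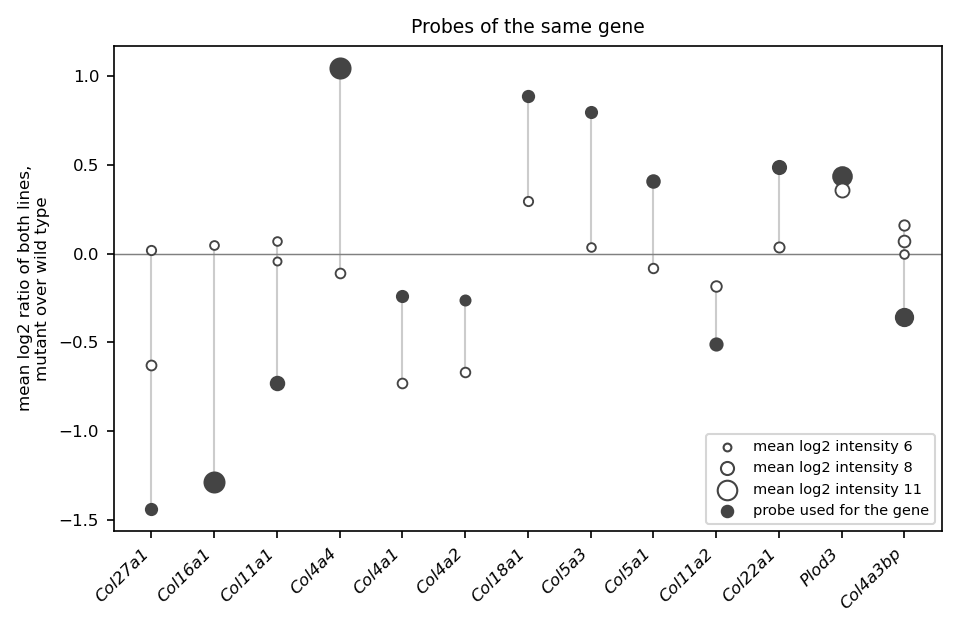
Mean log2 ratio of both lines, mutant over wild type (vertical axis), for each passing probe of 13 members with more than 1. Filled points are the brightest probe, used for the gene, open points are the others, and point size grows with mean log2 intensity. The brightest Col4a4 probe is at 1.05 and its other probe at −0.11, and the brightest Col16a1 probe is at −1.29 and its other at 0.05.

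Other genes of collagen biosynthesis were read from 3 lists, which share no gene with the members. In limma over the line means, 0 genes of these lists passed the adjusted threshold. Of 20 other folding and modification enzymes, all passed the filter, with a median of 0.05. Of these, 1 was at least 2-fold higher on all 4 arrays (1.69% of all genes) and 0 were lower (2.75%). That gene was Ero1a, the oxidase that recharges protein disulphide isomerase, at 1.71 (SD 0.24, n = 2; adjusted p = 0.0755). Crtap, a partner of the prolyl 3-hydroxylase complex, averaged 1.19 (SD 0.11). The lowest were the lectin chaperones Canx at −0.63 and Calr at −0.50. Other passing probes gave 0.88 for Ero1a, −0.26 and 0.04 for Canx and −0.36 for Calr.

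Of 16 procollagen peptidases and fibril regulators, 15 passed the filter, with a median of 0.05. None was 2-fold higher on all 4 arrays (1.69% of all genes), and 1 was 2-fold lower (2.75%). That was Sparc, a collagen-binding matricellular protein, at −2.60 (SD 0.25, n = 2; limma adjusted p = 0.0755). Bmp1, the C-proteinase that the Pcolce proteins enhance, averaged −1.03 (SD 0.25; adjusted p = 0.0818), with ratios of −1.14 and −1.27 in Dll1-3 and −0.77 and −0.94 in Dll1-5. The highest was Tnc, tenascin C, at 1.18, followed by the N-proteinase Adamts14 at 0.30. Other passing probes gave −2.12 for Sparc, −0.13 for Bmp1, 0.18 to 0.23 for Tnc (3 probes) and 0.02 for Adamts14.

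Of 14 collagen receptors and degradation genes, 13 passed, with a median of −0.01. The receptor kinase Ddr1 was 2-fold lower on all 4 arrays (2.75% of all genes), at −2.01 (SD 0.38, n = 2; limma adjusted p = 0.0755). None was 2-fold higher on all 4 (1.69%). The integrin subunit Itgb1 averaged −0.89 (SD 0.05), and the collagen endocytosis receptor Mrc2 averaged 1.13 (SD 0.05). Ddr2 had ratios of −0.44 and −0.47 in Dll1-3 and 0.98 and 0.98 in Dll1-5, and its mean of 0.26 describes neither line. Other passing probes gave −0.46 and 0.09 for Itgb1, 0.27 and 0.49 for Mrc2 and 0.18 for Ddr2.

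Markers of other cell types that make collagen were read beside these results. Of 12 fibroblast and meningeal markers, 11 passed, with a median of 0.06 and a summed signal of 2127 to 2255 in mutants against 2747 to 2837 in wild type. Pdgfra was at −1.72 (its other probe at 0.07), S100a4 at −0.78, Foxc1 at 0.61 and Thy1 at 0.58, and Twist1 did not pass. Of 9 mural markers, 7 passed, with a median of −0.01, and Des and Abcc9 did not pass. The sum was 7621 to 10208 in mutants against 10398 to 11694 in wild type. Acta2 was lowest at −0.82 (other probes −0.12 to 0.10) and Anpep highest at 0.39. Of 8 endothelial markers, 6 passed, with a median of 0.03, and Pecam1 and Tie1 did not pass. The sum was 656 to 688 in mutants against 673 to 729 in wild type. Flt1 was lowest at −0.85 (other probes −0.31 to 0.08) and Vwf highest at 0.49 (other probe 0.22). Of 8 chondrocyte and osteoblast markers, 6 passed, with a median of 0.11, and Ibsp and Matn1 did not pass. The sum was 1702 to 2064 in mutants against 3919 to 4530 in wild type. Sox6 was lowest at −1.85 (other probes −0.96 to −0.36) and Runx2 highest at 0.84 (other probes 0.05 to 0.62). The summed signals of these 4 lists in the mutants did not exceed the wild-type range. These sums follow the brightest probes, and single markers in each list lay on both sides of 0. The sums therefore give no measure of these cell types, and the part of such cells in the members' ratios was not tested.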

How the data were processed

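Two-colour arrays compared mutant with wild-type RNA. The authors deposited spot intensity values from Agilent Feature Extraction 8.1.1.1, as the headers of the files and the submitters' processing notes state. A log10 ratio of Cy5 over Cy3 is also given, per the file headers. The value table that the authors deposited, log10 too, correlated at −0.962 to −0.954 with mutant over wild type, so it was turned round. It served as an alternative, and no source used here gives its centring.

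Mean signals were background-corrected with normexp (offset 50, which compresses ratios of dim genes) and loess-normalised within arrays (span 0.3) in limma 3.58.1, R 4.3.3, with package data.table (version 1.17.8). Control and outlier spots had weight 0 and were left out. Of 41174 probes, 34447 passed the filter, giving 23107 genes, each taken from its brightest probe. Both arrays of each line were averaged, and limma tested the 2 line means against 0 with Benjamini-Hochberg adjustment over 23106 genes. Log2 signals per channel came from loess with Aquantile scaling. Gene names came from the files, updated through RefSeq (GRCm38.p6). Named members were Fkbp10, Pcolce2, Serpinh1, P4hb, those at least 2-fold on both arrays of a line, and the highest and lowest of each family. Names outside this rule, such as other chains and second probes, account for every member and were chosen after their values were seen. The members and lists were chosen with earlier results of these data known. The number of arrays, 4, limits the precision.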

Additional observations from a re-analysis of the deposited data

Results flagged for a closer look

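Pcolce2 was flagged because both arrays of Dll1-3 lay above wild type (2.84 and 2.77) and both of Dll1-5 below it (−1.07 and −0.71), a difference of 3.69 between the lines. The difference was not tested in the fit on line means. With the 4 arrays as separate samples, limma gave an adjusted p of 0.00095. The mutant signal in Dll1-5 was well above background on 1 of 2 arrays, so the lower side rests on dim spots.

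Col7a1 was flagged for the opposite pattern, with −0.99 and −0.83 in Dll1-3 and 0.21 and 0.24 in Dll1-5, a difference of −1.13. It was not tested in the fit on line means either, and limma gave an adjusted p of 0.00363 with the 4 arrays as separate samples.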

How the results depend on the processing

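Over up to 17 alternatives each, 336 of the recomputed values of the 23 named members kept their direction and side of the threshold. A further 45 passed the threshold where the fit reported above did not, and 6 changed sign. Those 6 were near 0: Loxl4 (−0.02) and P4hb (0.04) with median centring, Loxl4 (−0.02) and Col6a3 (−0.01) without Dll1-3 replicate 2, and Loxl4 (−0.03) and Col6a3 (−0.02) without Dll1-5 replicate 2. Leaving out 1 array gave −0.03 to 0.07 for Loxl4 and −0.02 to 0.03 for Col6a3. The median over all genes lay between 0.01 and 0.04 under every background and scaling setting tried. The cause of these changes was not tested.

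Members past the adjusted threshold numbered 1 with a normexp offset of 10 (922 of all genes) and 1 with the scanner software's ratios (336), Fkbp10 in both. Leaving out 1 array gave 0 to 5 members and 0 to 1678 genes. The 5 were Fkbp10, Pcolce, Col27a1, Col4a4 and Col4a5, both without Dll1-3 replicate 1 (1678 genes) and without Dll1-5 replicate 2 (1645). With the 4 arrays as separate samples, 16 members and 7728 genes passed. With line as a random block, 15 and 6613 passed. The replicate number marks dye orientation, and same-numbered arrays deviated together (r = 0.70). With only 2 arrays a line, both pairs hold the same information, and this r does not show pairing. With the replicate block, 14 members and 6683 genes passed.

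Counts by size moved with the setting. The shares of all genes given above belong to the reported setting alone. The counts below have no such share beside them and describe only the effect of the setting. Members with lines apart, 7 as reported, numbered 12 with the scanner's ratios, 12 with the deposited value table, 13 at 1.5-fold and 2 with median centring (6 to 8 leaving out 1 array). Those higher on all 4 arrays numbered 4 with the scanner's ratios, 4 with the value table and 4 at 1.5-fold. Those lower on all 4 numbered 0 without background correction and with the mean of probes, and 2 with an offset of 10, the scanner's ratios, the value table and 1.5-fold (1 to 2 leaving out 1 array). In Dll1-3, higher members numbered 5 with an offset of 10, 6 with the scanner's ratios, 6 with the value table and 7 at 1.5-fold, and lower ones 3 with median centring and 2 with the mean of probes. In Dll1-5, lower members numbered 0 without background correction and with the mean of probes, 3 with an offset of 10 and at 1.5-fold, and 4 with the scanner's ratios and the value table. Leaving out Dll1-5 replicate 2 gave 3, and leaving out any other array gave 1.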
